A study of Mus musculus with 20 samples.

Results

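The genes described here are 10 members of the bone morphogenetic protein (BMP) pathway: the ligands Bmp2, Bmp4 and Bmp7, the receptors Bmpr1a and Bmpr2, the signal carriers Smad1 and Smad5, and the target genes Id1, Id2 and Id3. They were taken by name and make up 10 of the 18193 genes with a named probe set, and 25 of the 45101 probe sets on the array. Their transcripts were measured in 20 single inner cell mass cells, 1 per Affymetrix array, taken from C57BL/6 mouse embryos at the blastocyst stage (embryonic day 3.5). As the cluster of cells inside the blastocyst, the inner cell mass is the tissue from which the epiblast, which forms the embryo itself, and the primitive endoderm, which lines the yolk sac, arise. Per the series design, trypsin-dissociated cells were picked at random, the V1V3 method was used to amplify their cDNA, and 50 of 55 cells passed a PCR screen as Oct4-positive and Cdx2-negative. All 20 cells share this strain, age and handling and form 1 labelled group with no treatment and no control. The labels do not tie a cell to an embryo, so cells may share an embryo, and the differences below carry no p-value.

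BMPs are secreted ligands that bring type I and type II receptor kinases together at the cell surface. The type II receptor (Bmpr2, or the activin receptors Acvr2a and Acvr2b) activates the type I receptor (such as Bmpr1a), which phosphorylates SMAD1 and SMAD5, and these enter the nucleus with SMAD4 and switch on target genes. The Id genes are among the best known of these targets, and their products bind E proteins and keep them from DNA. In the early mouse embryo BMP signalling is known above all for its later roles, in the patterning of the epiblast and the induction of primordial germ cells, and for the support of embryonic stem cell self-renewal through Id genes.

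Levels are given as log2(intensity + 8.49) after quantile normalization, a scale on which 3.25 is the lowest possible value. A gene was read from its brightest probe set, the one with the highest mean over the 20 cells, and different probe sets of a gene were compared only in their pattern over cells. A reading counts as above the floor when it exceeds the 95th percentile, on the same array, of 193 probe sets for genes that belong to unrelated tissues, which lay between 6.73 and 7.47. A reading at or below the floor gives no level, and it cannot show that a transcript was absent. Per array, 23.0% to 28.8% of probe sets exceeded it. Deposited array medians lay between 25.6 and 30.2 apart from cell 19, at 15. Pou5f1, which encodes Oct4, was above the floor in 20 of 20 cells (lowest 9.65, median 10.84, highest 11.58). Cdx2, the gene the PCR screen selected against, read above the floor in 17 cells, at most 1.11 over it, by the brighter of its probe sets, and in 0 cells by the other. Of 13 trophectoderm markers, 7 were above the floor in at least 3 cells and 5 (Elf5, Gata3, Krt7, Krt19 and Atp12a) in no cell, near the shares over all genes given below. The summed excess over the floor ranged from 7.17 to 15.6 and from 9.14 to 14.3 in the clusters named below, epiblast-like first. Hand1 read between 13.58 and 13.78 in all 20 cells by its brightest probe set, and was above the floor in 1 cell by its other. It therefore adds a large and nearly equal part to every sum. The part of trophectoderm RNA in the results was not tested.

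Cells were also divided into 2 clusters from 500 variable genes. The members and the BMP, lineage and reference genes on fixed lists were left out of these. BMP genes and lineage markers outside those lists were not removed. In 10 cells (1, 2, 7, 9, 12, 13, 14, 16, 18 and 19) epiblast markers read higher, with Fgf4 at 11.54 ± 0.51 (SD, n = 10) against 3.33 ± 0.16 and Nanog at 12.17 ± 0.16 against 7.89 ± 2.83, and these are called epiblast-like. In the other 10 cells (3, 4, 5, 6, 8, 10, 11, 15, 17 and 20) Gata4 was at 9.82 ± 0.96 against 4.01 ± 0.63, Gata6 at 11.55 ± 0.40 against 6.47 ± 2.24, Sox17 at 11.63 ± 0.69 against 5.63 ± 1.44 and Pdgfra at 12.13 ± 0.24 against 6.22 ± 3.24, and these are called primitive endoderm-like, or endoderm-like for short. Of 10 fixed epiblast markers, 9 were above the floor in at least 3 cells, and 7 of these were higher by at least 1 log2 unit in the epiblast-like cells, with 0 in the other direction. Of 21 fixed endoderm markers, 14 were above the floor in at least 3 cells and 4 in none. Of the 14, 12 were higher by at least 1 in the endoderm-like cells, and 1, Hnf4a, was higher in the epiblast-like cells (difference 2.45). The separation over the clustering genes was weak (mean silhouette 0.12).

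The ligand Bmp4, the receptors Bmpr1a and Bmpr2, the SMAD Smad5 and the targets Id1 and Id3 were above the floor in 3 or more of the 20 cells, while Bmp2, Bmp7, Smad1 and Id2 were above it in 1 cell at most. A share of 52.9% of all 18193 genes met the same criterion of 3 cells, so 6 of 10 members is close to the background. Bmp7 and Smad1 were above the floor in 0 cells by their brightest probe set, as were 38.3% of all genes. None of the 10 members was above the floor in all 20 cells, against 16% of all genes. Bmp4, Bmpr2, Smad5 and Id1 were each above the floor in some cells and not in others (between 3 and 17 cells), which held for 29.5% of all genes. The number of members above the floor ranged from 2 to 6 per cell.

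**Figure D1:**
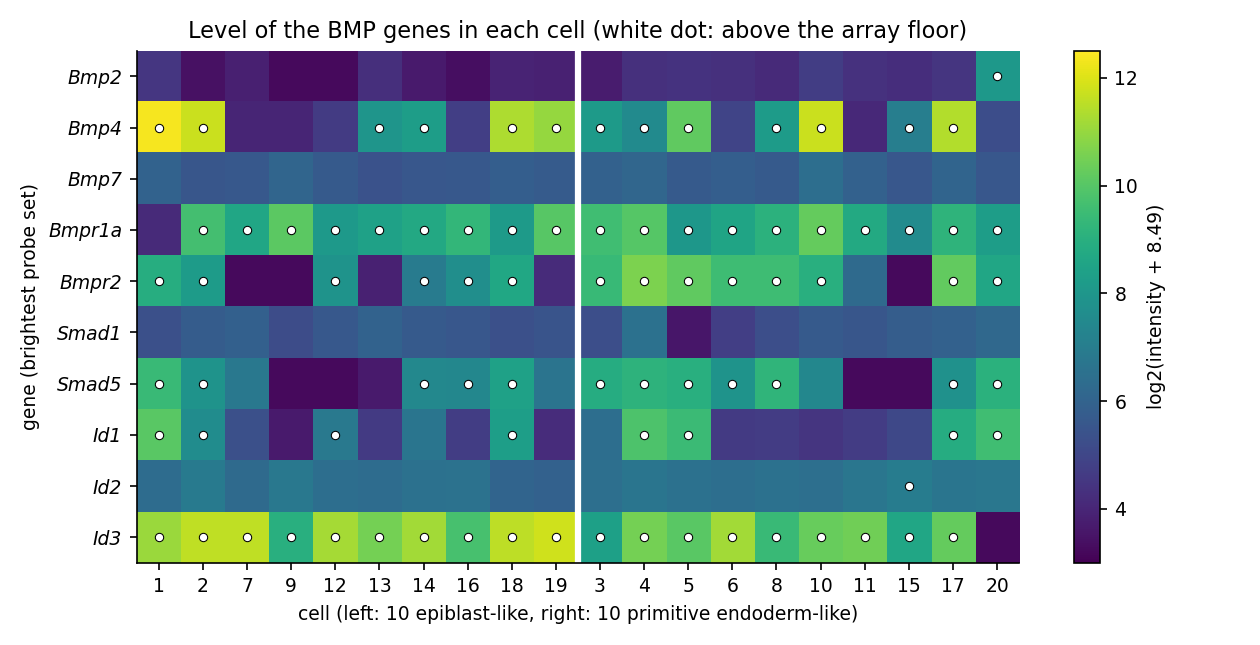
Level of each of the 10 genes (rows, brightest probe set) in each of the 20 cells (columns, epiblast-like left and endoderm-like right of the white line), as colour on the scale log2(intensity + 8.49). A white dot marks a reading above the floor of that array. Bmpr1a and Id3 have dots in 19 cells each, Bmp4 in 13, Bmpr2 in 14, Smad5 in 12 and Id1 in 8, while Bmp7 and Smad1 have none.

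Among the ligands, Bmp4 was the one read in many cells, and its level differed widely between them. Bmp4 (probe set 1422912_at) ranged from 3.97 in cell 9 through a median of 8.08 to 12.39 in cell 1. It exceeded the floor in 13 cells, of which 6 were epiblast-like and 7 endoderm-like. Of these, 7 (cells 1, 2, 5, 10, 17, 18 and 19) were more than 3 log2 units above the floor of their array, while cells 4 and 15 were within 0.5 of it. The remaining 7 cells read between 3.97 and 5.26. Strong and undetected cells therefore occurred in both clusters, and the cluster means differed by far less than their SD (8.01 ± 3.46 epiblast-like, 7.86 ± 2.65 endoderm-like, SD, n = 10 each).

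Bmp2, a close relative of Bmp4 (probe set 1423635_at), was above the floor in 1 cell, the endoderm-like cell 20, at 8.05. In the other 19 cells it read between 3.25 and 4.71. The same cell 20 was 1 of the 7 without Bmp4 above the floor. Bmp7, a ligand of another subgroup that can pair with BMP2 or BMP4, was above the floor in 0 cells by any of its 3 probe sets. Its brightest probe set (1435479_at) read between 5.40 and 6.44.

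Both receptors were read in most cells. Bmpr1a, the type I receptor (brightest probe set 1425492_at), was above the floor in 19 cells, from 4.15 in cell 1 through a median of 8.76 to 10.27 in cell 10. Its other 5 probe sets were above the floor in 17, 17, 16, 0 and 0 cells. In cell 1, where the brightest read 4.15, the next 3 read 9.59, 9.09 and 8.31. Counting any probe set, Bmpr1a was above the floor in 20 of 20 cells.

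The probe sets of Bmpr1a gave different orders of the cells. The brightest had Pearson's r of -0.19, -0.22 and -0.41 with the next 3 over the 20 cells, whereas the second and the third had r = 0.94 with each other and 0.41 and 0.51 with the fourth. Cell-to-cell differences in Bmpr1a thus depend on the probe set read. Its detection in all 20 cells rests on counting any probe set. With the mean of all its probe sets, Bmpr1a was above the floor in 11 cells. Correlations here and below are descriptions over 20 cells that share 1 amplification method and array type, and they carry no p-value.

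Bmpr2, the type II receptor dedicated to BMPs (brightest probe set 1434310_at), was above the floor in 14 cells. It read 3.25 in the lowest cells (7, 9 and 15), 8.42 at the median and 10.61 in cell 4, the highest. Cells 7, 9, 11, 13, 15 and 19 were not above the floor, and of the 14 that were, only cell 14 lay within 0.5 of it. The 8 endoderm-like cells with Bmpr2 read between 8.62 and 10.61 and the 6 epiblast-like cells with it between 6.97 and 8.91. The second probe set of Bmpr2 exceeded the floor in 3 cells (1, 5 and 14), all of them among the 14, and the third in 0.

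**Figure D2:**
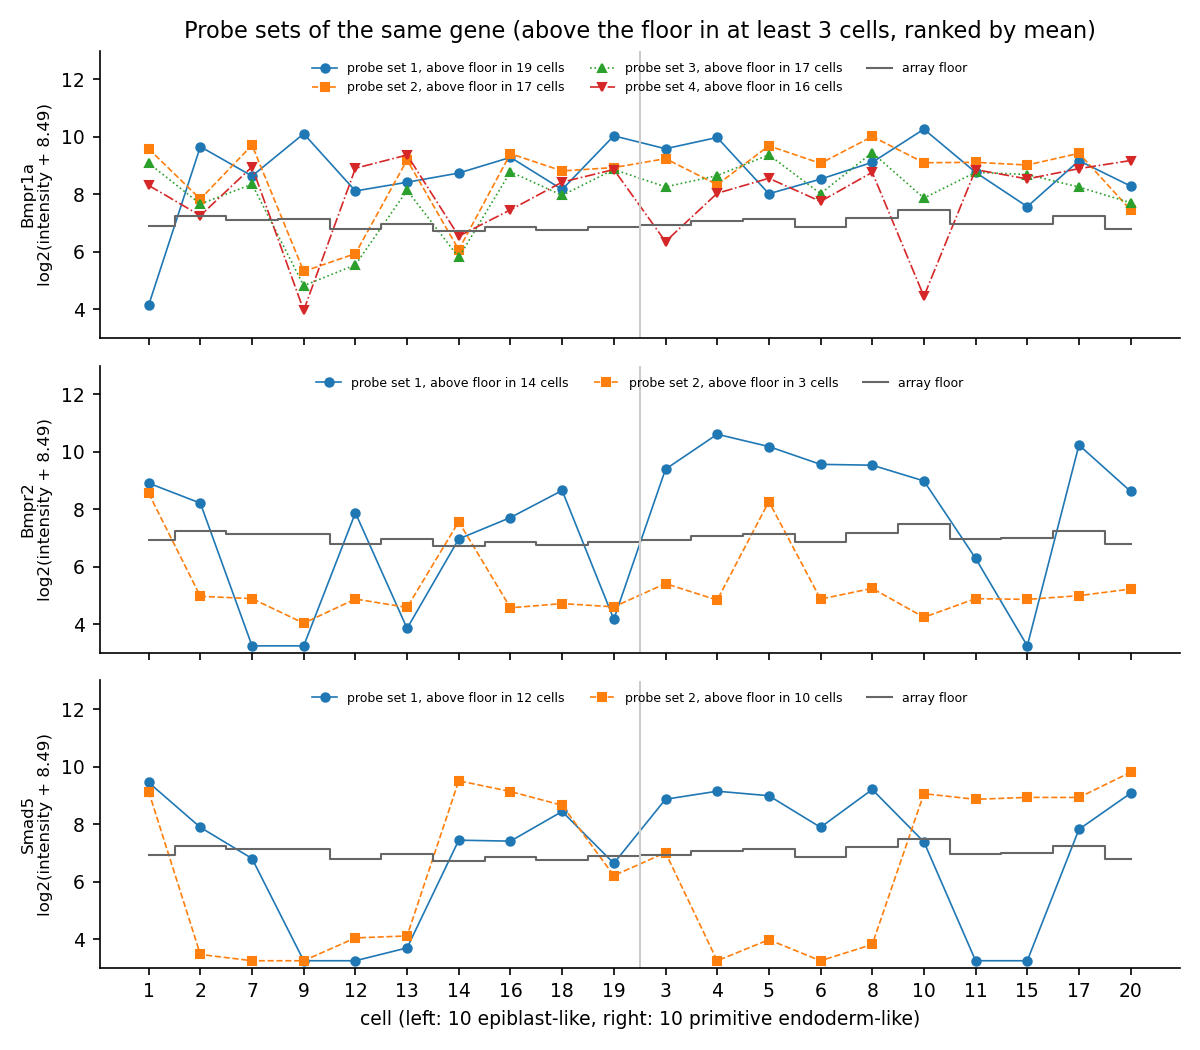
Levels of the probe sets of Bmpr1a, Bmpr2 and Smad5 that were above the floor in at least 3 cells (vertical axis, log2(intensity + 8.49)) in each of the 20 cells, with the floor of each array as a grey step line. Lines join readings of a probe set and imply no order of cells. The second and the third probe set of Bmpr1a run together (r = 0.94), while the 2 of Smad5 part in many cells (r = 0.10).

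The SMAD proteins directly downstream of these receptors differed in their detection. Smad5 (brightest probe set 1433641_at) was above the floor in 12 cells, with a lowest reading of 3.25, a median of 7.63 and a highest of 9.45 in cell 1. Cells 7, 10 and 19 read within 0.5 below the floor, so the count of 12 sits close to the threshold. Another probe set exceeded the floor in 10 cells, of which 7 were among the 12, and had r = 0.10 with the brightest. By any probe set Smad5 was above the floor in 15 cells.

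Smad1, the closest paralog of Smad5, was above the floor in 0 cells by its brightest probe set (1416081_at, from 3.56 to 6.54). Its other 2 probe sets were above the floor in cell 1 alone, at 7.59 and 7.19, and had r = 0.89 with each other. Cell 1 also held the highest readings of Bmp4, Smad5 and Id1.

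The stretches of 250 bases upstream of the Bmpr2 and Smad5 starts are shown because these genes had the closest pattern over cells among the members, as described below. They were read from RefSeq (GRCm38.p6), at chr1:59764029-59764278 and chr13:56702760-56703009, both on the plus strand, and for Smad5 the outermost of 3 listed starts was taken. Capitals mark the GC-rich motif GGCGCC bound by SMAD1 and SMAD5, which is its own reverse complement, and the SMAD box GTCT or, on the other strand, AGAC.
Bmpr2: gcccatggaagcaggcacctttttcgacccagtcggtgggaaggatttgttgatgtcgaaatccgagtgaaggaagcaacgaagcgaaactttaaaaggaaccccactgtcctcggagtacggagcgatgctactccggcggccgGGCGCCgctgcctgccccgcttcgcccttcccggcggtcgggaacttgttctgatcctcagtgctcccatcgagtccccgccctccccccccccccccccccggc
Smad5: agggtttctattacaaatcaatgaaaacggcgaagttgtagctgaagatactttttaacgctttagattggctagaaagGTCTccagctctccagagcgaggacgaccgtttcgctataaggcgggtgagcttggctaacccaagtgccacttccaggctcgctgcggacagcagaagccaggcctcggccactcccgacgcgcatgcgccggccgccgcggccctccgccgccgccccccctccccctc
The Bmpr2 stretch holds 1 GGCGCC and 0 SMAD boxes, and the Smad5 stretch 0 and 1. Among 32851 RefSeq windows of this length, 9.59% hold GGCGCC and 82.9% hold a SMAD box, so the latter says little of a window. These matches describe letters and not binding.

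Of the Id target genes, Id3 was read in nearly every cell, Id1 in fewer than 10 and Id2 at the edge of detection. Id3 (probe set 1416630_at) was above the floor in 19 cells, with a median of 10.49 and a highest reading of 11.80 in cell 19. Cell 20, the cell with Bmp2, read 3.25 for Id3, while the next lowest cell read 8.41. Id1 (probe set 1425895_a_at) was above the floor in 8 cells (1, 2, 4, 5, 12, 17, 18 and 20), with a lowest reading of 3.67, a median of 5.87 and a highest of 10.05 in cell 1. Readings of Id1 in cells 2, 3, 12 and 14 were within 0.5 of the floor, on either side. Cell 20 therefore had a high Id1 reading (9.60) beside no detected Id3. Over the 20 cells the levels of Id1 and Id3 had r = -0.17, but Spearman's rho = 0.02. Within clusters r was 0.48 (epiblast-like) and -0.34 (endoderm-like, which include cell 20), so the pooled r gives no firm direction.

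Id2 hardly varied and stayed near the floor. The brightest probe set (1453596_at) read between 5.95 and 6.99 in the 20 cells and exceeded the floor in cell 15 alone, by 0.01. Of the 20 readings, 11 were within 0.5 of the floor. With the floor set at the 90th percentile, Id2 would be above it in 17 cells, so its detection rests on the threshold. The other 2 probe sets were above the floor in 0 cells.

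The upstream stretches of Id2 and Id3, as targets of this pathway, are shown for the same motifs. They lie at chr12:25096093-25096342 on the minus strand and chr4:136143572-136143821 on the plus strand (RefSeq, GRCm38.p6).
Id2: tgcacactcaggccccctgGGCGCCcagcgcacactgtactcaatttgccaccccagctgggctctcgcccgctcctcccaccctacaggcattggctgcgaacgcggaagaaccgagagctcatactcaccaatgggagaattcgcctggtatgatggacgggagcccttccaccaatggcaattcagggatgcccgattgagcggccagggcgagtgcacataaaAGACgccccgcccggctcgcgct
Id3: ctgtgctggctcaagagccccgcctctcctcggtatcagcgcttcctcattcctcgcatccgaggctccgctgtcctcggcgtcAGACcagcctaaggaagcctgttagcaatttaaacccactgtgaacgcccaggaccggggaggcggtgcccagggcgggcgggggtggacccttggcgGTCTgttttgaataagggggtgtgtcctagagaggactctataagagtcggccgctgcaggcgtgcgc
Id2 holds 1 GGCGCC and 1 SMAD box, and Id3 holds 0 and 2. The arrangement of GGCGCC and GTCT with 5 bases between them, known from BMP-responsive elements, is in 0.07% of all windows and in none of the 7 members with a window in the table (Bmp4, Bmpr1a, Bmpr2, Smad1, Smad5, Id2 and Id3). GGCGCC alone is in 3 of these 7, and the SMAD box in 4. Elements outside these 250 bases were not searched.

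Members were then read together per cell, each by its brightest probe set. The 6 above the floor in at least 3 cells (Bmp4, Bmpr1a, Bmpr2, Smad5, Id1 and Id3) were all above it in 5 cells. These were the epiblast-like cells 2 and 18 and the endoderm-like cells 4, 5 and 17. Another 4 cells (1, 3, 8 and 14) had 5 of the 6, and 5 cells (6, 10, 12, 16 and 20) had 4. The remaining cells had 3 (13, 15 and 19) or 2 (7, 9 and 11). Cells 7, 9 and 11 had Bmpr1a and Id3 alone. By these probe sets, complete and sparse sets were thus found in both clusters. By other probe sets Bmpr1a was above the floor in cell 1 too, and Smad5 in cells 10, 11 and 15, so the tally depends on the probe set read.

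The rule paired each ligand with each receptor and Id gene, and each receptor and SMAD with each Id gene, which gave 27 pairs. In 10 of them both genes were above the floor in 3 or more cells, and of these 2 had r of at least 0.5, both with Id1. Bmpr2 and Id1 had r = 0.61 (Spearman's rho = 0.50, n = 20 cells). All 8 cells with Id1 above the floor also had Bmpr2 above it, 6 cells had Bmpr2 alone and 6 had neither. In the 6 cells without Bmpr2, Id1 read between 3.67 and 5.31. The relation had r = 0.82 within the epiblast-like and 0.47 within the endoderm-like cells, and 0.55 when the 2 cells with the most extreme Bmpr2 were left out.

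Smad5 and Id1 had r = 0.58 (rho = 0.64), or 0.74 with readings under the floor raised to it. Id1 was above the floor in 7 of the 12 cells with Smad5 by its brightest probe set and in 1 of the other 8. Within the clusters r was 0.64 (epiblast-like) and 0.52 (endoderm-like), and with the 2 cells of most extreme Smad5 left out it was 0.65. With the second probe set of Smad5, however, r with Id1 was 0.17.

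Bmpr2 and Smad5 were compared after their shared pattern had been seen. They had r = 0.74 (rho = 0.76), and within clusters 0.57 (epiblast-like) and 0.89 (endoderm-like). All 12 cells with Smad5 above the floor by its brightest probe set had Bmpr2 above it too. With readings raised to the floor, r was 0.77, higher than the r of Bmpr2 with 99.96% of all tested genes. With the second probe set of Smad5 in place of the brightest, r was 0.09, and 8 of the 10 cells above the floor by it had Bmpr2 above it. The second probe set of Bmpr2, above the floor in 3 cells, is too dim for this comparison. When the probe sets of each gene were averaged, the relation of Bmpr2 and Smad5 was 0.59, but no cell then had both genes above the floor.

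**Figure D3:**
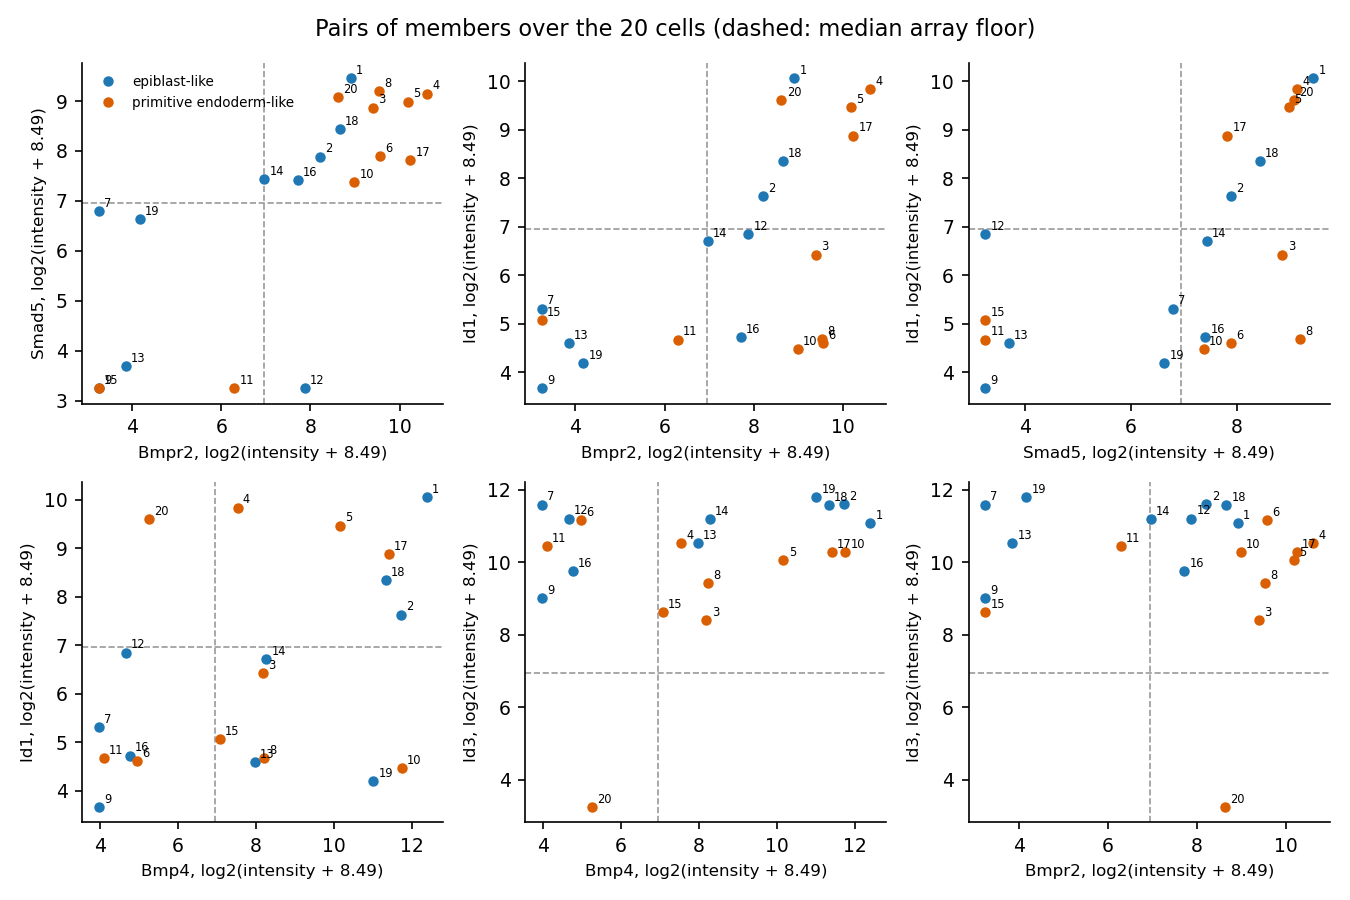
Pairs of members over the 20 cells, each point 1 cell labelled by its number, with both axes as log2(intensity + 8.49) and the median array floor (6.95) dashed. Each gene is read from its brightest probe set. In the panels of Bmpr2 with Smad5 and with Id1, the upper left field holds no cell. By these probe sets no cell has Smad5 or Id1 above the floor without Bmpr2, whereas by the second probe set of Smad5 cells 11 and 15 do. In the panels with Id3, 19 of 20 cells are in the upper part whatever the level of Bmp4 or Bmpr2.

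The 12 cells with both Bmpr2 and Smad5 above the floor (5 epiblast-like, 7 endoderm-like) had Id1 between 4.61 and 10.05 with a median of 7.99. The 6 cells with neither (7, 9, 11, 13, 15 and 19) had Id1 between 3.67 and 5.31 with a median of 4.64. Both groups rest on the brightest probe sets. By the second probe set of Smad5, cells 11 and 15 of the 6 were above the floor, at 8.86 and 8.93. Id1 was above the floor in 7 of the 12 and in 0 of the 6. Id3 by contrast was above the floor in 11 of the 12 and in 6 of the 6, at 8.61 to 11.80 in the latter. Over the 20 cells Id3 had r between -0.11 and 0.30 with Bmp4, Bmpr1a, Bmpr2 and Smad5, none of which reached 0.5 in size. Within the epiblast-like cells these r were 0.56, -0.19, 0.26 and 0.47, in the same order. Within the endoderm-like cells, which include cell 20, they were 0.27, 0.31, 0.17 and -0.18.

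Over all 20 cells, the ligand Bmp4 was less closely related to the receptors and targets than Bmpr2 and Smad5 were to Id1. Bmp4 and Id1 had r = 0.41 (rho = 0.32). Both were above the floor in 6 cells, Bmp4 alone in 7, Id1 alone in 2 and neither in 5. Within clusters it was 0.62 (epiblast-like) and 0.19 (endoderm-like), and 0.24 with the 2 cells of most extreme Bmp4 left out. Cells 10 and 19 had Bmp4 at 11.74 and 11.01 with Id1 at 4.48 and 4.20, whereas cell 20 had Bmp4 at 5.26 with Id1 at 9.60. These cells show that a high ligand reading and a high Id1 reading could occur apart in the same cell. A secreted ligand can act on neighbouring cells, and which cells were neighbours is not known here.

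Bmp4 and Bmpr2 had r = 0.37 (rho = 0.46), with both above the floor in 10 cells. Within clusters r was 0.48 (rho = 0.78, epiblast-like) and 0.39 (rho = 0.41, endoderm-like). Bmp4 and Smad5, not a pair of the rule, had r = 0.48, or 0.26 with readings raised to the floor. Within clusters their r was 0.65 (epiblast-like) and 0.34 (endoderm-like). Bmp4 and Id3 had r = 0.30. For Bmp4 with Bmpr1a r was -0.15, and it was 0.24 without cell 1 and 0.18 without cell 9. Bmpr1a and Id1 had r = -0.43, which was -0.22 without cell 1, -0.20 without cell 9 and -0.56 without cell 4, and between 0.02 and 0.31 with the other detected probe sets of Bmpr1a. As the brightest probe set of Bmpr1a is the one that missed cell 1, neither value describes the gene firmly.

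Between the clusters, Id3 read higher in the epiblast-like cells and Bmpr2 and Smad5 in the endoderm-like cells, and the cells of both clusters overlapped for every member. In the epiblast-like cells Id3 ranged from 9.0 through a median of 11.20 to 11.80, and in the endoderm-like cells from 3.25 through 10.17 to 11.17. The means were 10.93 ± 0.91 and 9.25 ± 2.28 (SD, n = 10 each), a difference of 1.69 that was 1.02 without cell 20. Id3 is 1 of 6 tested members higher by at least 1 log2 unit in the epiblast-like cells, beside 11.6% of all 9617 genes tested.

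In the epiblast-like cells Bmpr2 ranged from 3.25 through a median of 7.34 to 8.91, against 3.25 through 9.46 to 10.61 in the endoderm-like cells. The means were 6.29 ± 2.36 and 8.67 ± 2.25, a difference of -2.38 (epiblast-like minus endoderm-like), or -1.46 with readings raised to the floor. The 7 highest Bmpr2 readings of all were in endoderm-like cells. Smad5 had medians of 7.11 and 8.38 and means of 6.43 ± 2.24 and 7.49 ± 2.32, a difference of -1.06. The difference of Smad5 was -0.69 with readings raised to the floor, and its size was under 1 without any 1 of cells 3, 4, 5, 8, 9, 10, 12, 13 or 20 (from -0.66 to -0.91), so that it sits at the limit of 1. These 2 of 6 members stand beside 8.09% of all tested genes higher by at least 1 in the endoderm-like cells. With readings raised to the floor, Id3 (1.33) and Bmpr2 still differed by at least 1, beside 3.33% and 2.99% of all tested genes in the same directions. The median difference of the 6 tested members was -0.48, against 0.05 over all tested genes.

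Bmp4 (difference 0.14), Bmpr1a (-0.40) and Id1 (-0.56) differed between the clusters by less than the SD within them. Id1 was above the floor in 4 cells of each cluster. The differences of Bmpr1a by its other 3 detected probe sets were -0.97, -1.0 and -0.13.

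**Figure D4:**
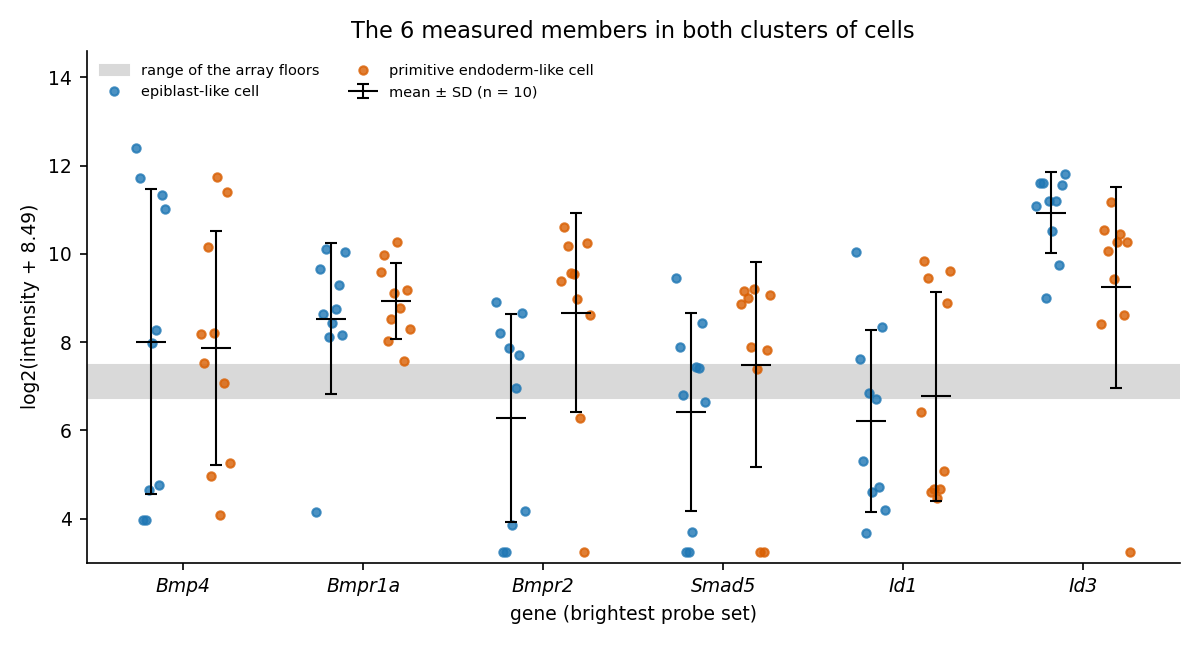
Readings of the 6 members above the floor in at least 3 cells, as log2(intensity + 8.49), with 1 point per cell (blue epiblast-like, orange endoderm-like), horizontal bars for the mean and error bars for the SD (n = 10). The grey band is the range of the array floors, 6.73 to 7.47. All 10 epiblast-like cells have Id3 above the band, and for Bmp4 and Id1 each cluster has cells far above and below it.

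The spread over cells was compared with that of other genes of like mean level. The variance of Bmp4 was 13 times the fitted trend, larger than the ratio of 99.4% of tested genes, followed by Bmpr2 (larger than 97.9%), Id3 (97.7%), Smad5 (94.0%), Id1 (87.5%) and Bmpr1a (59.0%). Each ratio was tested with an F test against the prior that limma fitted to all tested genes, with Benjamini-Hochberg adjustment. In this test 0 members passed, and 0% of the 9617 tested genes did. Of all genes 26 had an unadjusted p under 0.05, none of them a member. The smallest adjusted p of any gene was 0.736, a tied value that Bmp4, Bmpr2, Smad5, Id1 and Id3 shared with other genes. The fitted prior had 2.22 degrees of freedom, with which the F test can call hardly any gene. Bmp4, at 13 times the trend, had an unadjusted p of 0.059 in it. That no gene passed therefore does not show that the spread of the members is ordinary.

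The other genes of the pathway were taken from 7 lists by role. Of 65 listed genes 59 were measured, 27 were above the floor in at least 3 cells and 20 in none, beside 52.9% and 38.3% of all genes. Of the 27, 1 was higher by at least 1 log2 unit in epiblast-like cells and 6 in endoderm-like cells, beside 11.6% and 8.09% of all tested genes. With readings raised to the floor the counts were 0 and 2, beside 3.33% and 2.99%. The median difference of the 27 was -0.02.

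Among 10 other measured ligands, 4 were above the floor in at least 3 cells. Gdf3, a ligand of the same superfamily, was above it in 20 cells and read 10.09 ± 0.45 in epiblast-like and 9.11 ± 0.71 in endoderm-like cells (SD, n = 10 each), a difference of 0.98. Bmp6 was above the floor in 3 cells, all endoderm-like, with a difference of -1.99 that was -0.55 when raised to the floor. Bmp5 was above the floor in 20 cells by its brightest probe set, with a difference of 0.16 and in 0 cells by each of its others, and Gdf2 in 10 cells near the floor.

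Of 5 other receptors the type II receptors Acvr2a and Acvr2b, which BMPs share with activins, read higher in the endoderm-like cells, as Bmpr2 did. Acvr2a exceeded the floor in 4 epiblast-like and 8 endoderm-like cells (6.36 ± 2.01 against 8.63 ± 1.44, a difference of -2.26, or -1.16 raised to the floor). Acvr2b was above it in 5 and 8 cells (7.04 ± 1.30 against 8.15 ± 1.19, a difference of -1.11, or -0.79 raised). After these values were seen, the type II receptors Bmpr2, Acvr2a and Acvr2b were counted together by their brightest probe sets. At least 1 was above the floor in 18 of 20 cells, and in all 10 endoderm-like cells. All 3 were above it in 1 epiblast-like and 5 endoderm-like cells, and none in cells 9 and 13. No count for other sets of 3 genes is given beside these. The other probe sets were above the floor in fewer cells, 3 for Acvr2a, 8 and 1 for Acvr2b, and 3 and 0 for Bmpr2. Across the 20 cells Bmpr2 had r = 0.27 with Acvr2a and 0.05 with Acvr2b. The type I receptor Acvr1 was above the floor in 4 cells, and Bmpr1b and Acvrl1 in 0.

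Of 5 measured co-receptors, Bambi, a pseudoreceptor that blocks BMP and TGF-beta signalling, exceeded the floor in 7 epiblast-like and 3 endoderm-like cells (7.11 ± 1.82 against 5.73 ± 2.52), and its difference of 1.38 was 0.19 when raised to the floor. Eng was above the floor in 9 cells near it. The 6 detected genes of 9 SMADs and regulators included Smad4, the shared partner SMAD, in 20 cells (lowest 8.18, median 10.60, highest 11.07), while the inhibitory Smad6 and Smad7 were above the floor in 0 cells by their brightest probe sets. Smurf1, a ubiquitin ligase that targets SMAD1 and SMAD5, exceeded the floor in 1 epiblast-like and 5 endoderm-like cells (difference -1.93, or -0.67 raised). Its relative Smurf2 was above it in 17 cells, and the SMAD co-repressors Ski and Skil in 19 and 9.

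Of 18 measured secreted modulators, 5 were above the floor in at least 3 cells and 6 in none. The antagonists Nog and Grem1 were above it in 0 cells and Chrd in 2. Furin, a protease that cleaves BMP precursors, exceeded the floor in 6 epiblast-like and 9 endoderm-like cells (6.77 ± 1.65 against 8.34 ± 1.45, a difference of -1.57, or -1.08 raised). The related protease Pcsk6 was above it in 20 cells, at 9.92 ± 0.47 and 9.22 ± 0.93. Twsg1 was above it in 4 cells (difference -1.67, or -0.36 raised), and Sost in 20 cells by its brightest probe set and 0 by its other.

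Of 9 other measured BMP target genes, 4 were above the floor in at least 3 cells and none differed by 1 between the clusters. Tbx3, a T-box factor, was above the floor in 20 cells (10.34 ± 0.97 epiblast-like, 11.18 ± 0.52 endoderm-like), Dusp9 in 20 with a difference of -0.30, and Atoh8 in 19. Msx2 was above it in 19 cells, near the floor (highest reading 7.94), and in 7 by its other probe set. The related Id4 was above it in 0 cells by its brightest probe set and in 1 cell by each of its other 2. The E proteins that Id products bind were all detected, Tcf3 in 13, Tcf4 in 13 and Tcf12 in 16 cells.

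**Figure D5:**
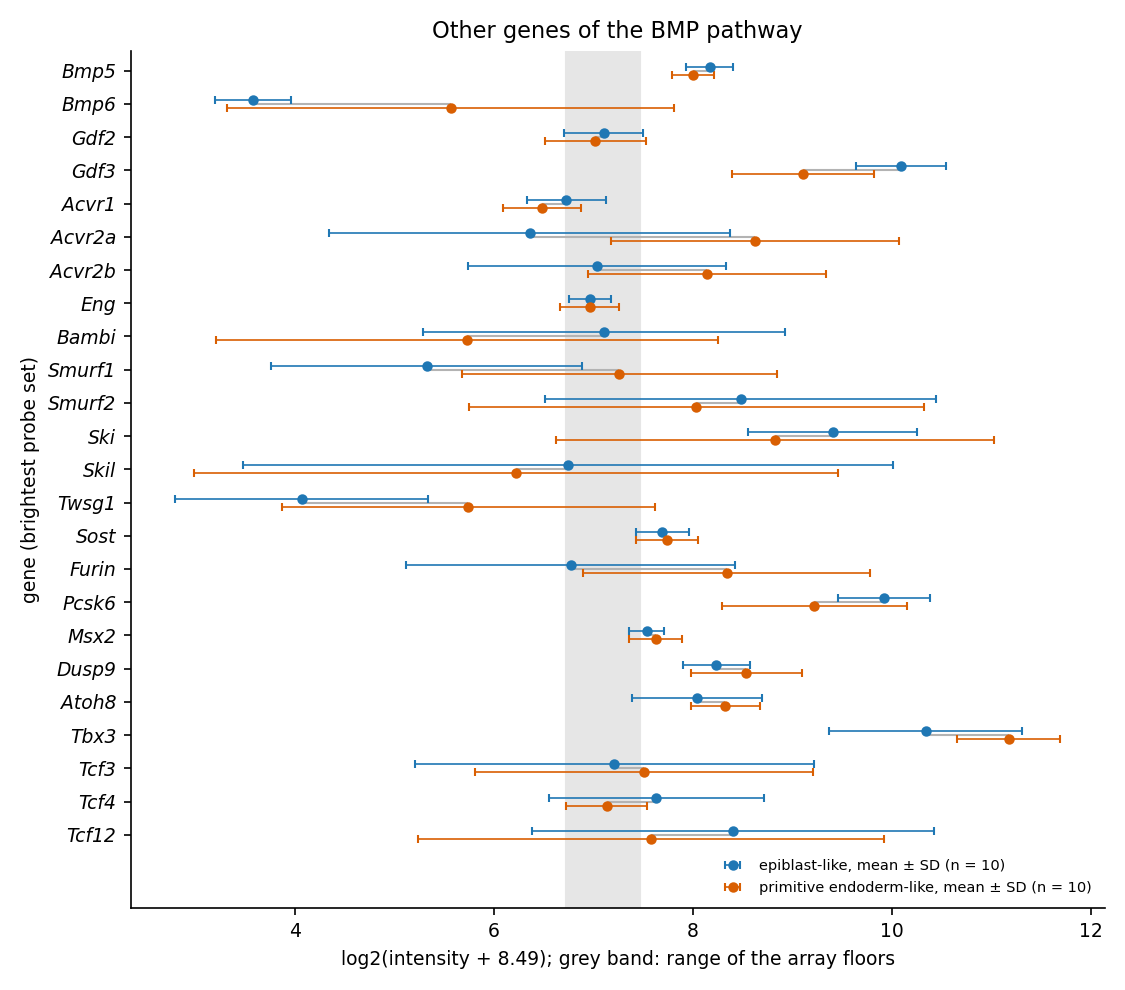
Mean and SD of 24 other BMP pathway genes (rows, brightest probe set) in the 10 epiblast-like (blue) and 10 endoderm-like (orange) cells on the scale log2(intensity + 8.49), with the range of the array floors as a grey band. Acvr2a, Acvr2b, Furin and Smurf1 have the higher mean in the endoderm-like cells and Gdf3 and Bambi in the epiblast-like cells, with error bars that overlap for each of these genes.

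Measures of the arrays were set beside the members. Over the 20 cells r between a tested member and the share of probe sets above the floor, the deposited median, the floor or the mean of 7 reference genes did not exceed 0.446 in size. The mean correlation of an array with the other arrays, 0.591 to 0.673, had r = 0.57 with Id3, -0.42 with Id1, -0.31 with Bmpr2 and -0.29 with Smad5. Its part in the differences between cells was not tested.

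The genes whose readings, raised to the floor, had the highest r over the 20 cells with Bmp4 were Erbb3, a receptor of the EGF receptor family (r = 0.83, above the floor in 9 cells, all of them with Bmp4), Arhgef19 (0.76, 3 cells) and Prodh (0.76, 5 cells). For Id1 they were the homeobox gene Pitx1 (0.82, 8 cells, 6 of them with Id1), Fam53b (0.80) and Ceacam1 (0.79). For Id3 they were Baz2a (0.81), Plcd1 (0.79) and Mrpl24 (0.78). These are the extremes of 9616 genes each, of which 1% had r above 0.59, 0.59 and 0.62. No member of the pathway lists was among them.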

How the data were processed

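Each of 20 inner cell mass cells was hybridised to 1 Affymetrix array. The authors deposited a linear intensity for each probe set, with values between 1 and 26616. How probe sets were summarised, corrected and normalized is not given in the sources used here. Per the labels' protocols, cDNA of unpurified lysates was amplified by PCR and labelled with biotin.

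Array means after 2% trimming lay between 182.5 and 221.2, and arrays were quantile-normalized, then taken to log2(intensity + 8.49), the pseudocount being the median 25th percentile of the arrays. GEO's platform annotation gave 1 gene to 34945 probe sets, several to 932 and none to 9160, besides 64 controls. Those with several were left unnamed. The 9617 genes that exceeded the floor in 3 or more cells entered comparisons over genes. Cells were clustered by Ward's method (scipy 1.17.1) on the 500 genes with the largest variance ratio. Variances were tested with an F test against a prior fitted by limma 3.58.1 (R 4.3.3). The variance test, the differences and the correlations were tried on simulated data. For the variance test, all genes but those made more variable had the same SD there. The simulation therefore does not show how readily that test calls genes in these data.

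The 10 members, the lists and the tests were chosen with earlier results of these data known. Named besides the members were up to 4 detected genes of each pathway list with the largest cluster difference, the 3 genes most like Bmp4, Id1 and Id3, and 6 lineage markers. Pou5f1 and Cdx2 were named for the PCR screen, and Smad4, Smad6, Smad7, Bmpr1b, Acvrl1, Nog, Grem1, Chrd, Id4, Hnf4a and trophectoderm markers other than Cdx2 after their values were seen. Upstream sequences came from a RefSeq table, in which 7 of the 10 members were found. Alternatives were the deposited values, another pseudocount, other floors, the mean of all probe sets, other clustering genes, no filter on low values, rank correlation, raised readings, and each cell left out.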

Additional observations from a re-analysis of the deposited data

How the results depend on the processing

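The number of members above the floor in at least 3 cells (6) was 5 with the mean of all probe sets, 7 with the floor at the 90th percentile (Id2 added), and 6 under the other alternatives. The variance test called 0 genes and so says nothing of stability. No result changed its call in the opposite direction. The count of members higher in endoderm-like cells (2) was 0 with the mean of all probe sets, 1 with 200 or 1000 clustering genes, 1 with readings raised to the floor, and 1 to 2 with each cell left out. With the mean of all probe sets Bmpr2 was above the floor in 1 cell and so gave no difference. The 2 relations of at least 0.5 became 0 with the mean of all probe sets, which includes probe sets that were above the floor in no cell, and 2 to 3 with each cell left out (3 without cells 4, 10 or 20). Of the other pathway genes, the 1 higher in epiblast-like cells became 0 with raised readings and 0 to 3 with each cell left out, and the 6 higher in endoderm-like cells became 2 and 4 to 6. The detected other BMP pathway genes (27) numbered 20 with the mean of all probe sets, 37 and 21 with the floor at the 90th and the 99th percentile, and 25 to 27 with each cell left out. Members higher in epiblast-like cells stayed at 1. Cell 6 changed cluster with 200 or 1000 clustering genes and without cells 8 or 10. With the floor at the 99th percentile Smad5 was above it in 7 cells, and Bmpr2 and Smad5 together in 7. No paired analysis was possible because all cells form 1 group. The signal over the floor and the number of arrays limit every value, and cells of unknown embryos allow no test of conditions.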
